A study of Mus musculus with 2 samples.

Results

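The Wnt pathway genes described here are 57 of the 24421 genes listed, chosen by name: the Wnt ligands, the frizzled receptors, the Sfrp and Dkk antagonists, and named co-receptors, secretion factors, receptor-turnover ligases, cytoplasmic transducers and TCF/LEF transcription factors. The naming rule itself uses no expression value. They were measured by sequencing the 3' ends of messenger RNAs in 2 libraries of mouse 3T3-L1 cells, a preadipocyte line that is turned into fat cells by hormones. The labels give the line a C57BL/6 strain background and passages 10 to 13. Both cultures were held for 2 days past confluence, induced for 2 days with insulin (1 µg/mL), dexamethasone (0.25 µM) and the phosphodiesterase inhibitor IBMX (0.5 mM) in 10% fetal bovine serum, and then kept in insulin. The control received nothing more. The other culture also received DF, a preparation of several herbs that the sample title calls DF-GA70, which stayed in the medium until harvest. How much DF was used, and on which day the cells were harvested, was not given in the sources used here. There was 1 library for each condition, so each value lacks a replicate error and no test between the conditions was possible.

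Wnt proteins are secreted, lipid-modified signals that bind frizzled receptors together with the co-receptors Lrp5 or Lrp6. In the canonical branch this halts the destruction of beta-catenin, which enters the nucleus and activates target genes through TCF/LEF factors; in non-canonical branches it acts through cell polarity and calcium signals. Canonical signalling, with Wnt10b as its best-known ligand in this setting, holds preadipocytes back from becoming fat cells, and its decline accompanies adipogenesis.

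Values are on the deposited log2 scale, and a difference is DF minus control on that scale. Because reads come from transcript ends, values were not divided by transcript length, and levels are set beside each other between genes on that footing only. Genes were examined if either library reached 8.18, the median of all values above 0, and counted if the libraries differed by at least 1.5-fold (0.58 log2 units). Sequencing depth is unknown. The highest 140 values, down to 13.98, are the same in both files once sorted. A value in that range thus gives a rank rather than an amount. Further down, like values also stood at like ranks. The value 10.80 was rank 1915 in the control (Dvl2) and rank 1916 with DF (Csnk1e). The value 9.47 was rank 3943 in the control (Apc) and rank 3941 with DF (Rock1). Folds, sums, shares and ratios below 13.98 are therefore given on the deposited scale and may reflect rank rather than amount.

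The cultures carried the markers of fat cells, and the preadipocyte marker Dlk1 was also high in both. All 8 mature adipocyte markers lay between 12.46 and 17.55 in both libraries, with 1 of them, Cidec, higher by 1.5-fold with DF. Both Cidec values lie in the range that gives ranks only, at rank 94 in the control and rank 50 with DF. Of 6 preadipocyte markers, Cd34 was listed at 0 in both libraries, and 3 of the 4 examined were lower by 1.5-fold (Dlk1, Pdgfra and Ly6a). Dlk1 was at 16.55 (rank 11) in the control and 15.10 (rank 52) with DF. The other examined marker, Pdgfrb, was at 10.51 and 10.58. The summed linear value of these 6 came to 101114 for the control and 38097 for DF. Most of it was Dlk1, whose values lie in the range that gives ranks only, and without Dlk1 the sums were 5297 and 3016. Fewer cells of a type and less RNA per cell cannot be told apart in such bulk samples, and the part of these differences in the results below was not tested. The 5 macrophage markers did not exceed 4.88 and the 4 osteoblast markers were listed at 0 in both. Of 4 endothelial markers, Kdr and Tek were at 0 in both and Pecam1 was at 6.49 and 2.83. Sox9, a chondrocyte marker, was at 10.67 and 10.68 while Col2a1 and Acan were at 0 in both. Of 4 muscle markers, Des was at 9.79 and 10.43, higher by 1.5-fold, and Acta1 at 1.00 and 6.54, while Myod1 and Myog were at 0 in both.

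Few Wnt pathway genes differed by 1.5-fold between the cultures. Of the 57 genes, 16 were examined; 2 were higher with DF by 1.5-fold, the ligand gene Wnt5a and the co-receptor gene Lrp5, and 1 was lower, the receptor-turnover gene Znrf3. The same rule counted 10.2% of all 6761 examined genes as higher and 10.9% as lower, so the counts of 2 and 1 among 16 are close to that background. At 2-fold, 0 members were higher and 0 lower, against 2.56% and 3.21% of all examined genes. The median difference was -0.16 over the 25 members above 0 in both libraries, beside 0.04 over all 11744 such genes. Among the 16 examined members the difference was above 0 in 5 and below 0 in 11, and it ran from -0.63 to 0.66. Over all 6761 examined genes the difference was above 0 in 3455 and below 0 in 3295. Of the other 41 members, 9 were above 0 in both libraries but under the floor, 12 were above 0 in only 1 library and 20 were listed at 0 in both. Those 20 are 35.1% of the 57 members, beside 44.3% of all 24421 genes listed at 0 in both. Of all 24421 genes, 6761 were examined.

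**Figure D1:**
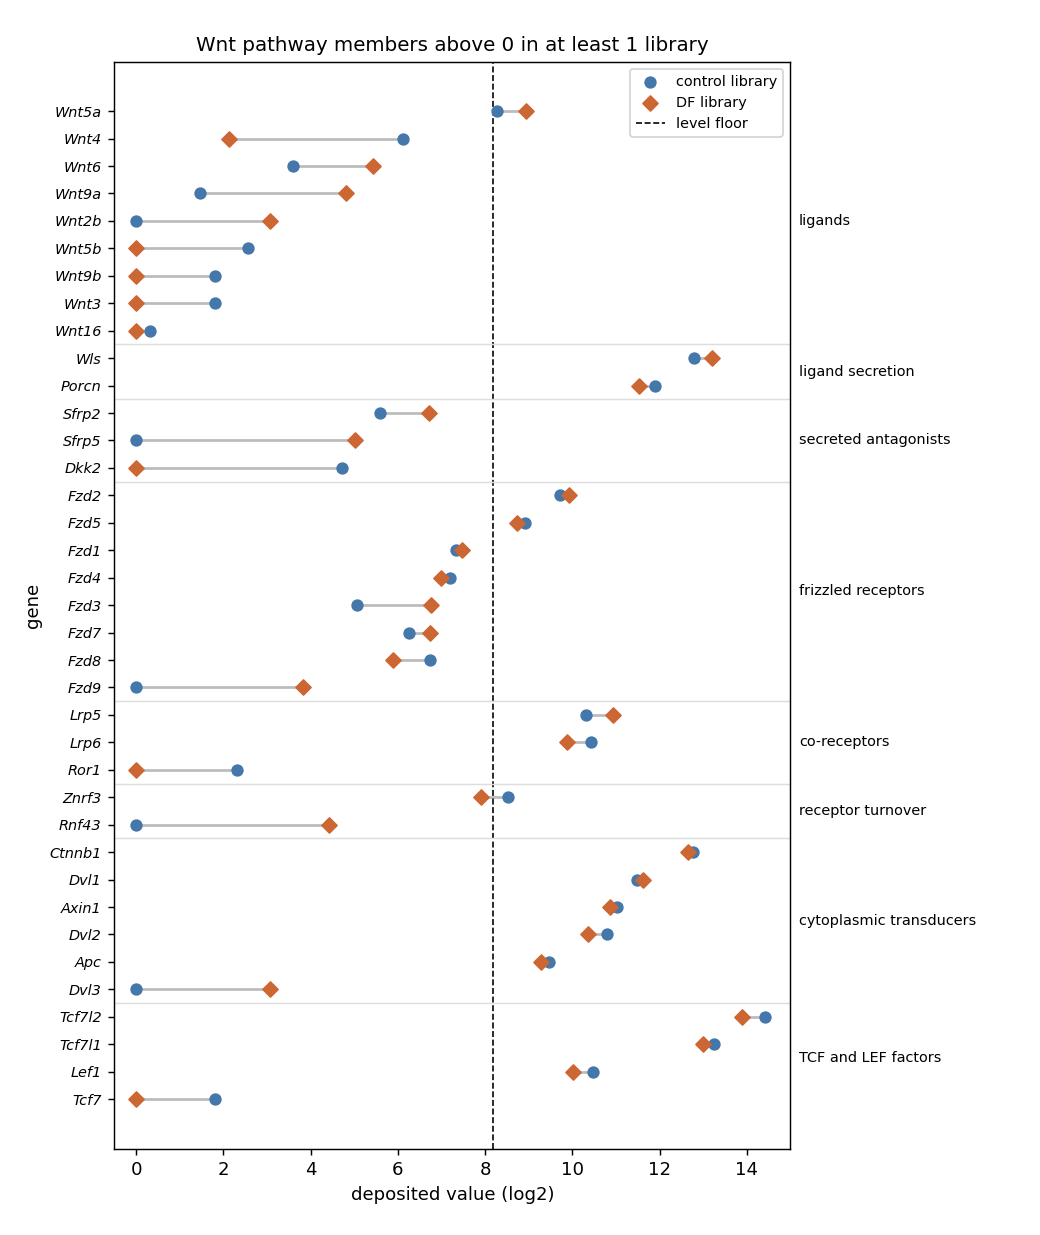
Deposited log2 values (horizontal axis) of the 37 members above 0 in at least 1 library, grouped by role; circles are the control library, diamonds the DF library, and the dashed line is the level floor of 8.18. Most transducers, TCF/LEF factors and secretion factors lie above the floor, while most ligands and all antagonists lie below it.

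Among the 19 ligand genes, only Wnt5a, which encodes a mainly non-canonical ligand, reached the floor. It was at 8.26 in the control library against 8.93 under DF, 1.58-fold higher with DF. Both values lie close to the floor, and a floor of 9.18 leaves the gene out. Among the 1765 examined genes with a mean level of 8 to 9, where Wnt5a falls, 13.5% were higher by 1.5-fold. On the linear scale Wnt5a made up 75.7% of the summed ligand value in the control and 85.3% with DF. The Wnt5a gene occupies bases 28504750 to 28527448 of chromosome 14, plus strand (GRCm38), with no coding gene overlapping it.

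The other ligands were low or listed at 0. Wnt4 was at 6.12 in the control library against 2.13 under DF, the widest gap among ligands above 0 in both libraries. Wnt6 and Wnt9a lay the other way, Wnt6 at 3.60 and 5.44 and Wnt9a at 1.46 and 4.80. Wnt5b (2.55), Wnt3 (1.81), Wnt9b (1.81) and Wnt16 (0.32) were above 0 in the control library alone, and Wnt2b (3.07) in the DF library alone. The remaining 10, Wnt1, Wnt2, Wnt3a, Wnt7a, Wnt7b, Wnt8a, Wnt8b, Wnt10a, Wnt10b and Wnt11, were listed at 0 in both. Wnt10b is thus among the genes for which these libraries show no difference to describe. Among proteasome and RNA polymerase II genes, taken by symbol, zeros were rare. Of 40 proteasome genes 1, Psma8, was listed at 0 in both libraries, as were 0 of 13 RNA polymerase II genes. This does not show whether a 0 for a ligand gene means absence or missed detection.

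Gaps at such low values are common in these files. Of 4984 genes above 0 but under the floor in both libraries, 18.5% were higher by 2-fold with DF and 12.1% were lower. Of the 9 Wnt pathway members in that range, 4 were higher by 2-fold (Wnt6, Wnt9a, Sfrp2 and Fzd3) and 1 was lower (Wnt4), which is 44.4% and 11.1% of these 9. Genes also drop out of 1 library at this level. Of genes with a control value over 4 and up to 6, 15.7% were listed at 0 with DF, and of genes with a DF value in that range, 9.97% were listed at 0 in the control.

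Several Wnt genes sit in close pairs on the genome, with unlike values in some pairs and like values in others. Wnt6 lies 6.19 kb from Wnt10a on chromosome 1, and Wnt6 was above 0 in both libraries while Wnt10a was at 0 in both. Wnt9a lies 16.2 kb from Wnt3a on chromosome 11, again with Wnt9a above 0 in both and Wnt3a at 0. Wnt3 and Wnt9b, 24.3 kb apart on chromosome 11, both had a value of 1.81 in the control library and were listed at 0 under DF. Wnt1 and Wnt10b, 11.7 kb apart on chromosome 15, were both at 0.

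The genes that release the ligands were abundant, and neither passed the 1.5-fold rule. Wls, the carrier that takes Wnt proteins to the cell surface, was at 12.78 in the control library against 13.19 under DF, 1.33-fold higher. Porcn, the enzyme that attaches their lipid, was at 11.90 and 11.53, 1.29-fold lower. Both values of each stood well above those of any ligand gene.

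No secreted antagonist was examined, because all 9 lay under the floor in both libraries. Sfrp2, a decoy that binds Wnt proteins, was at 5.59 in the control library against 6.72 under DF. Sfrp5, an antagonist known from adipose tissue, was listed at 0 in the control and was at 5.03 with DF. Dkk2, of the Dkk family that binds Lrp5 and Lrp6, was at 4.73 in the control library and listed at 0 under DF. Both of these single-library values fall in the range of 4 to 6 whose drop-out shares are given above. Sfrp1, Sfrp4, Dkk1, Dkk3, Dkk4 and Wif1 were listed at 0 in both.

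The frizzled receptors formed a set of moderate to low values, with 7 of 10 above 0 in both libraries. Fzd2 was the highest, at 9.72 in the control library against 9.92 under DF, followed by Fzd5 at 8.92 and 8.73. Neither passed the 1.5-fold rule. Fzd2 held 45.7% of the summed linear frizzled value in the control and 48.9% with DF. Under the floor, Fzd1 was at 7.32 and 7.46, Fzd4 at 7.19 and 6.98, and Fzd7 at 6.26 and 6.73. Fzd8 was at 6.73 and 5.89, and Fzd3 at 5.06 and 6.76. In the order of these 5, Fzd3 and Fzd8 exchanged places between the libraries, and without replicates it cannot be said which neighbours in it differ. Fzd9 was listed at 0 in the control and was at 3.82 with DF, and Fzd6 and Fzd10 were at 0 in both.

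The co-receptor genes Lrp5 and Lrp6 differed in opposite directions. Lrp5 was at 10.31 in the control library against 10.92 under DF, 1.53-fold higher. Lrp6 was at 10.43 and 9.89, 1.46-fold lower and just short of the 1.5-fold rule. Within the control library the pair was nearly equal, with Lrp5 0.92 times Lrp6 on the linear scale, whereas in the DF library Lrp5 stood at 2.05 times Lrp6. This ratio was looked at after the values were seen, with 4 others that also moved. Wls went from 1.85 to 3.17 times Porcn and Dvl1 from 1.59 to 2.40 times Dvl2. Fzd2 went from 1.75 to 2.29 times Fzd5, and Tcf7l2 from 2.23 to 1.84 times Tcf7l1. The control value of Tcf7l2 is among the highest 140, so the ratio of 2.23 rests on a rank. Among examined genes with a mean level of 10 to 11, where Lrp5 falls, 7.05% were higher by 1.5-fold. Lrp5 lies at chromosome 19, 3584828 to 3686564, and Lrp6 at chromosome 6, 134446476 to 134566965, both on the minus strand with no coding gene overlapping. The receptor kinase genes Ror1 and Ror2 were near the bottom of the scale. Ror1 was at 2.32 in the control library and listed at 0 under DF, and Ror2 was at 0 in both.

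Znrf3 and Rnf43 encode membrane ubiquitin ligases that remove frizzled receptors from the surface. Znrf3 was at 8.53 in the control library against 7.90 under DF, 1.55-fold lower, and it was examined only through its control value. Among examined genes with a mean level of 8 to 9, 13.7% were lower by 1.5-fold. With 32 added to the linear values, Znrf3 no longer passed. Its gene lies at chromosome 11, 5276324 to 5444847 on the minus strand. Rnf43 was listed at 0 in the control and was at 4.42 with DF. The members nearest the 1.5-fold limit were Lrp5 (0.61) and Znrf3 (-0.63) inside it, and Lrp6 (-0.54) and Tcf7l2 (-0.52) outside it.

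**Figure D2:**
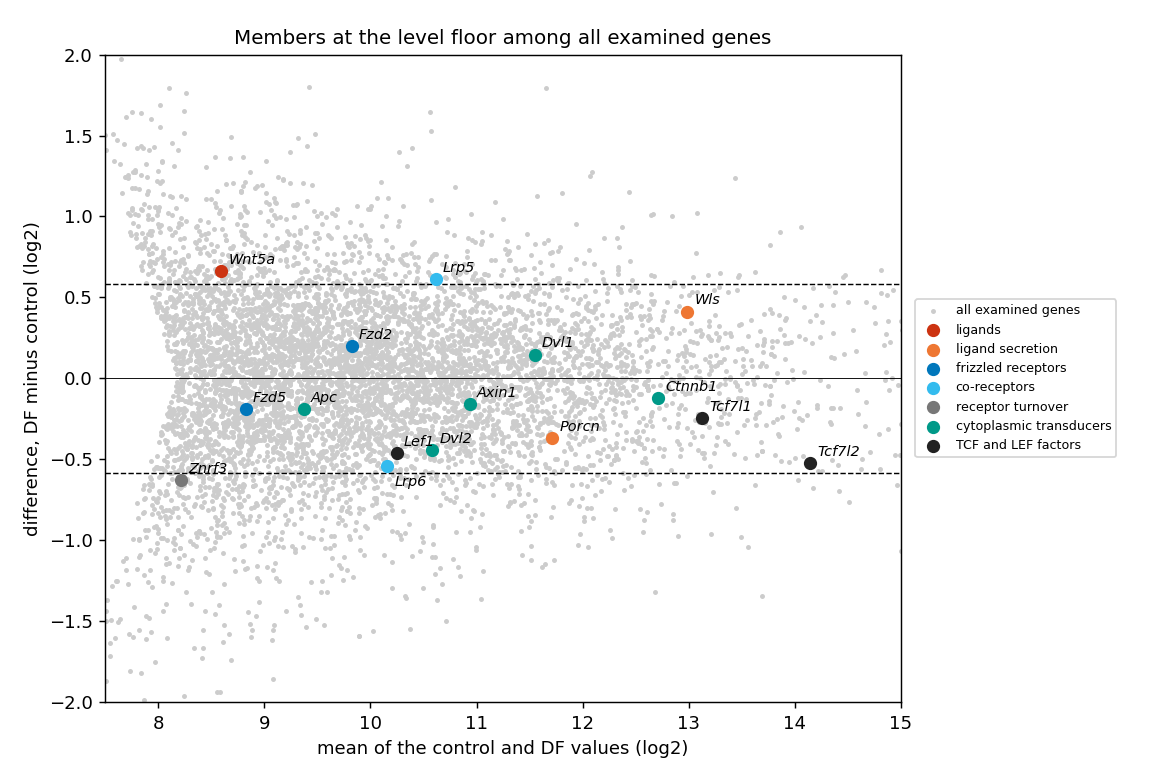
Difference (DF minus control, log2) against the mean of both values (log2) for all examined genes (grey) and the 16 examined members, coloured by role; dashed lines mark 1.5-fold, and 95 of the 6761 genes lie outside the axes. Wnt5a and Lrp5 lie above the upper line, Znrf3 lies below the lower line, and the other 13 members lie between them.

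Of the 7 cytoplasmic transducers, 5 were examined and 0 of them passed the 1.5-fold rule in either direction. Over all examined genes 10.2% were higher and 10.9% lower, and with so few genes a count of 0 is close to that background. Ctnnb1, which encodes beta-catenin, was at 12.78 in the control library against 12.65 under DF, 1.09-fold lower. Its 3' end lies inside Ulk4 on the opposite strand, and Ulk4 was at 3.32 and 0. Axin1, the scaffold of the complex that destroys beta-catenin, was at 11.02 and 10.85, and Apc, a further scaffold, at 9.47 and 9.28. Axin2, a feedback scaffold and a common readout of canonical signalling, was listed at 0 in both libraries. Of the dishevelled genes, which relay the signal from frizzled receptors, Dvl1 was at 11.48 and 11.62 and Dvl2 at 10.80 and 10.36, 1.36-fold lower. Dvl3 was at 0 in the control library against 3.07 under DF. The 3' end of Dvl2 overlaps Acadvl on the other strand over 2119 bases, and Acadvl was at 12.35 and 12.99. Dvl1 and Tas1r3 overlap by 36 bases at their 3' ends, and Tas1r3 was at 10.15 and 10.43. A strand setting for the counting was not given in the sources used here, so the reads of Dvl1 and Dvl2 are less certain.

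Of the 4 TCF/LEF genes, 3 were examined, and each of these had a lower value with DF without reaching 1.5-fold. Over all 6761 examined genes the difference was below 0 in 3295, and 10.9% were lower by 1.5-fold. Tcf7l2, the factor through which beta-catenin acts in many tissues, had the highest value of all members in both libraries. It was at 14.41 in the control, rank 99 of all genes, and 13.88 with DF, rank 153, a difference of -0.52. Its control value is among the highest 140 and thus gives a rank. Tcf7l1, often a repressor of the same targets, was at 13.25 and 13.00, and Lef1 at 10.48 and 10.02. Tcf7 was at 1.81 in the control library and listed at 0 under DF. Tcf7l2 made up 66.1% of the summed linear value of these 4 genes in the control and 62.0% with DF. The control share rests on that value, which gives a rank. The gene occupies bases 55741820 to 55933654 of chromosome 19, plus strand.

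Genes commonly used as readouts of canonical signalling gave 0 of 9 examined beyond 1.5-fold in either direction, where 10.2% of all examined genes were higher and 10.9% lower. With so few genes, a count of 0 is close to that background. Their median was -0.19, beside 0.01 over all examined genes. By the mean of both libraries, the most abundant of these 18 listed genes were Tcf4, at 11.78 in the control library against 11.57 under DF, and Nr2f2, at 11.07 and 10.79. Nr2f2 encodes COUP-TFII, a nuclear receptor that restrains adipogenesis. Myc was at 8.56 and 9.06 and Ccnd1, which encodes cyclin D1, at 9.84 and 9.29; both were named for their wide use as readouts and fall outside the naming rule. Sp5, Tnfrsf19, Nkd2 and Fgf18 were listed at 0 in both, as was Axin2 above. Nkd1 was at 0 and 2.49, and Id2 at 5.48 and 0. The readouts of this list at 0 in 1 or both libraries also fall outside the naming rule. The other examined readouts are not printed.

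Promoters were searched for the core letters that TCF/LEF proteins bind, CTTTGAT or CTTTGAA, on both strands, from 250 bases before to 50 after the RefSeq start (GRCm38.p6). Of the 57 members, 39 had an entry and 3 of these (7.69%) held a match, Dkk1, Wnt5b and Wnt11, beside 9.88% of all 27025 symbols in the table. None of these 3 genes exceeded 2.55 in either library. Of 12 readout genes with an entry, 3 held a match, namely Nr2f2, Sp5 and Tnfrsf19. The bases before the start are printed for the 3 members, for Nr2f2 as a readout with high values and for Sp5 as a readout listed at 0, with the match in capitals. Such letters stand before genes at either end of the scale. A match is a description of the letters, not a binding site.
Dkk1, chr19:30549497-30549746, minus strand: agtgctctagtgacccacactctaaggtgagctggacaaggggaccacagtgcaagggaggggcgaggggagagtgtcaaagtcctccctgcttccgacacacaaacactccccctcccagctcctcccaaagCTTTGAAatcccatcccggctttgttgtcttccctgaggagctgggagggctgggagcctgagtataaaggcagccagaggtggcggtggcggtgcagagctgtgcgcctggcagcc
Wnt5b, chr6:119449387-119449636, minus strand: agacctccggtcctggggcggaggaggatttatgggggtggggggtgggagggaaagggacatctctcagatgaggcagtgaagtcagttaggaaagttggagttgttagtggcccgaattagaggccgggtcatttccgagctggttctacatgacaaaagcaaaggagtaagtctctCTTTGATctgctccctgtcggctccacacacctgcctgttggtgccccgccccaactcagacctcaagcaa
Wnt11, chr7:98834862-98835111, plus strand: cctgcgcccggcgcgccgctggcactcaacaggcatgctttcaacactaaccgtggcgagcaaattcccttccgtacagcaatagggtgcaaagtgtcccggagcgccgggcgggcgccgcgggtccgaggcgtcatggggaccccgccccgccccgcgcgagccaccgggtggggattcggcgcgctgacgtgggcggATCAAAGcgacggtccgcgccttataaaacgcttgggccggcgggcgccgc
Nr2f2, chr7:70366747-70366996, minus strand: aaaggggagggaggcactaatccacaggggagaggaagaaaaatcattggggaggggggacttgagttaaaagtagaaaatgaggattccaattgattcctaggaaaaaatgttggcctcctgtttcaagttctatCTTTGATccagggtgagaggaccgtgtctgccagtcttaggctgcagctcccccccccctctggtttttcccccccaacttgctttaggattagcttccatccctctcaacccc
Sp5, chr2:70474673-70474922, plus strand: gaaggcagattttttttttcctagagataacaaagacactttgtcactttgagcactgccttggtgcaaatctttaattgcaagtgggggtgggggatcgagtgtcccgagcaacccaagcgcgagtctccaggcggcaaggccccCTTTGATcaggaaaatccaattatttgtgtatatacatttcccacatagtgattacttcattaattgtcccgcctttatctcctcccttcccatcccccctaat
The match begins 117 bases before the start in Dkk1, 71 in Wnt5b, 51 in Wnt11, 114 in Nr2f2 and 104 in Sp5. In Wnt11 it is the reverse complement, ATCAAAG.

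The other genes of the pathway, in 5 more lists, showed few differences of 1.5-fold, and those counted were all in the destruction complex or the non-canonical branch. Of 15 examined genes of the destruction complex, 3 were higher by 1.5-fold (20.0%, against 10.2% of all examined genes) and 0 lower (against 10.9%), with a median of 0.03. Those 3 were Ppp2r1a (10.00 and 10.77) and Ppp2r5a (10.32 and 11.03), subunits of protein phosphatase 2A, and Siah1a (9.81 and 10.43), a ubiquitin ligase. They were 1.71-fold, 1.63-fold and 1.54-fold higher. By the mean of both libraries, the most abundant genes of that list, Tnks2 (13.01 and 12.79), a tankyrase that acts on axin, and Csnk1g2 (12.20 and 12.22), a casein kinase, did not pass.

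Of 17 examined genes of the planar polarity and other non-canonical branches, 0 were higher by 1.5-fold (against 10.2% of all examined genes) and 4 lower (23.5%, against 10.9%), with a median of -0.17. Mapk9, which encodes the kinase JNK2, was at 11.66 in the control library against 10.46 under DF, 2.28-fold lower. Nlk, a kinase that phosphorylates TCF/LEF factors, was at 9.36 and 8.40, 1.94-fold lower. Scrib, a polarity scaffold, was at 8.50 and 7.69, so it was examined only through its control value. With the floor reached in both libraries, the other pathway lists together kept 3 lower counts. Invs, which encodes inversin, was at 9.14 and 8.44. A floor of 9.18 leaves out both Scrib and Invs. The abundant GTPase genes Rhoa (12.86 and 13.02) and Rac1 (12.27 and 12.41) did not pass.

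In the remaining lists 0 genes passed in either direction. Among R-spondins and other surface modulators 6 of 20 genes were examined, with a median of -0.19, and the most abundant were the Wnt receptor kinase gene Ryk (13.58 and 13.83) and the glypican gene Gpc4 (11.28 and 11.10). Among nuclear cofactors of beta-catenin 14 of 18 were examined, with a median of -0.03, led by the corepressor gene Ctbp1 (13.35 and 13.21) and Pygo2 (13.00 and 12.82), which binds methylated histone H3. Among ligand trafficking genes all 8 were examined, with a median of -0.09, led by Tmed10 (11.22 and 10.88) and Tmed2 (11.02 and 10.62). Over the 6 lists together 3 of 69 examined genes were higher by 1.5-fold (4.35%) and 4 lower (5.80%), beside 10.2% and 10.9% of all examined genes. That background was not matched for level. It was 13.5% higher and 13.7% lower at a mean level of 8 to 9, but 7.05% and 7.64% at 10 to 11.

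**Figure D3:**
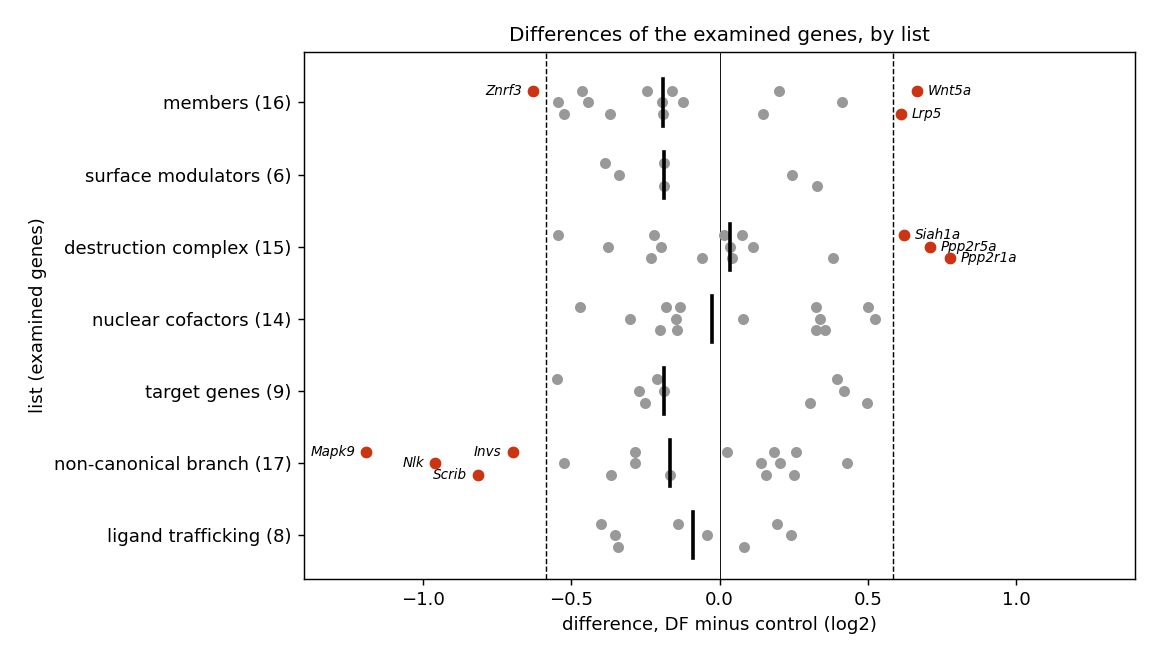
Difference (DF minus control, log2) of each examined gene, in rows for the members and the 6 other pathway lists, with the number of examined genes in brackets; red points passed 1.5-fold (dashed lines), and the black bar is the median of the row. The named points are the 3 members, 3 destruction complex genes on the higher side and 4 non-canonical genes on the lower side.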

How the data were processed

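Messenger RNA was measured in 1 control and 1 DF library of 3T3-L1 adipocytes, prepared per the labels' protocols with a Lexogen 3' kit (500 ng of RNA input, single reads of 75 nt). The authors deposited log2 values, with 0 as the lowest, under headers that hold only the symbol column and a sample name. Bowtie2, edgeR and the mm10 build are named per the submitters' processing notes; versions, the read counter, the annotation, the strand setting and the normalization were not given in the sources used here. Identical highest values in both files point to a common distribution imposed on both libraries, which removes differences in total output.

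Differences were computed as DF minus control with no pseudocount, in Python 3.11.15 with pandas 2.3.3. The counting code was checked on simulated data with noise-free shifts in genes well above the floor. That check does not cover genes near the floor or near the 1.5-fold limit. With 1 library a group, no test was run. Named were every member at the level floor, lower members by role, and in each other list the 2 most abundant genes and up to 4 counted genes. Members and lists were chosen with earlier results of these data known. Gene positions are those of GENCODE vM21 (GRCm38), which matched all 57 symbols. Alternatives changed the floor, centring and pseudocount. No counting intervals were computed, as the depth is unknown.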

Additional observations from a re-analysis of the deposited data

How the results depend on the processing

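All values rest on 1 library a group at unknown depth, so no library could be left out. No paired analysis was possible because each group holds 1 library. Without the floor, the counts ran over genes above 0 in both libraries. Of 25 such members, 6 were higher and 3 lower by 1.5-fold, and 4 and 1 by 2-fold. Over all 11744 such genes these counts were 2153 and 1864, and 1095 and 820. Over 87 such genes of the other pathway lists they were 7 and 13 at 1.5-fold. With the floor reached in both libraries, 0 of 15 members were lower by 1.5-fold, since Znrf3 is no longer examined. Over all 5927 such genes 453 were higher and 482 lower by 1.5-fold, and 74 and 95 by 2-fold. Over 66 such genes of the other pathway lists, 3 were higher and 3 lower by 1.5-fold. With the floor raised to 9.18, 1 of 13 members (Lrp5) was higher and 0 lower by 1.5-fold. The other pathway lists kept 2 lower counts among 57 examined genes. Over all 4819 genes examined there, 410 and 460 passed 1.5-fold and 86 and 122 passed 2-fold. Fewer genes are examined under both stricter floors. With a pseudocount of 32, 2 of 16 members were higher and 0 lower by 1.5-fold, beside 629 and 673 of all 6761 examined genes. Centring on the median changed no member's count, and the median over members ranged from -0.19 to -0.16. The differences of the 16 examined members kept their sign under centring and pseudocounts of 8 and 32, moving by at most 0.062. The depth being unknown, no detection limit can be given for members under the floor or listed at 0.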
